A study of Mus musculus with 38 samples.

Results

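Globin and erythroid transcripts were followed in the left ventricle of mice as a sign of the blood a sample held and of red cell precursors within it. The transcripts were taken by name: the alpha globins Hba-a1 and Hba-a2, the beta globins Hbb-bs and Hbb-bt, Alas2 and Slc4a1, which make 6 of the 29564 genes in the tables. All 6 passed the filter on low counts, which kept 13765 genes. Polyadenylated RNA of 38 left ventricle samples from wild-type C57BL6 mice (C57BL/6J in the study's methods) was sequenced, in 4 groups. The non_failing group (n = 8) received vehicle. In the other groups heart failure with preserved ejection fraction (HFpEF) was brought about by a high-fat diet with L-NAME, an inhibitor of nitric oxide synthases, and the mice then received vehicle (HFpEF+Veh, n = 8), TYA-018, an inhibitor of the deacetylase HDAC6 (HFpEF+TYA-018, n = 11), or empagliflozin, an inhibitor of the glucose transporter SGLT2 (HFpEF+SGLT2i, n = 11). The labels give no age. They give the sex as female where the study's methods say male. In every library 4 Y-linked genes were present, at 1.59 TPM or more (TPM, a measure of level corrected for transcript length and depth). A library is named by its number in the labels, such as V2529. The labels do not say that each number is a separate animal, but the study counts the replicates of its heart expression data as mice.

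Haemoglobin is a tetramer of alpha and beta globin chains, each of which binds haem, and it fills the red cell. ALAS2 is the erythroid enzyme of the first step of haem synthesis, and SLC4A1 is band 3, the anion exchanger that anchors the skeleton of the red cell membrane. Mature mouse red cells have no nucleus, but young red cells in the circulation (reticulocytes) still carry globin RNA, so that a heart that holds blood also holds these transcripts. Alpha globin is also made in the wall of small arteries. The study's methods describe death by carbon dioxide and decapitation and freezing of the tissue, and state no flushing of blood from the heart. In a bulk sample fewer cells of a type and less RNA per cell cannot be told apart.

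The globin genes lie in clusters, and promoters of globin genes and Alas2 are shown as a description. The part of promoter sequence in how the 6 transcripts moved together across libraries was not tested. In GRCm38 (GENCODE M21) Hba-a1 has 3 exons at chr11:32283511-32284465 and Hba-a2 has 3 exons at chr11:32296489-32297298, both on the plus strand. Hbb-bs, with 3 exons at chr7:103826534-103828096, and Hbb-bt, with 3 exons at chr7:103812524-103813996, lie on the minus strand. Alas2, with 11 exons at chrX:150547375-150570638, is on the plus strand, and Slc4a1, with 20 exons at chr11:102348824-102366203, is on the minus strand. The 250 bases before the RefSeq start in GRCm38.p6 are given 5′ to 3′ on the strand of the gene for Hba-a1 (chr11:32283422-32283671), Hbb-bs (chr7:103827929-103828178), Hbb-bt (chr7:103813924-103814173) and Alas2 (chrX:150547167-150547416). A RefSeq entry was found for 5 of the 6 genes. Each RefSeq start lies inside the GENCODE gene given above, so the windows overlap the genes. Distances are counted from the RefSeq start. Capitals mark 4 motifs on either strand. The first is the GATA site, searched as GATAA and on the other strand as TTATC. The next is the CACCC box, whose other strand reads GGGTG. The CCAAT box was searched on the other strand as ATTGG, and the TATA box as TATAA with TTATA opposite.
Hba-a1: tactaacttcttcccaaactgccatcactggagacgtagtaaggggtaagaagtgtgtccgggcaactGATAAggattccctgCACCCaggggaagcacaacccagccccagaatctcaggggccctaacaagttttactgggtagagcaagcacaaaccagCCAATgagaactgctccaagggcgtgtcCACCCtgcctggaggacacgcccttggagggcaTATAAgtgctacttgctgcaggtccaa
Hbb-bs: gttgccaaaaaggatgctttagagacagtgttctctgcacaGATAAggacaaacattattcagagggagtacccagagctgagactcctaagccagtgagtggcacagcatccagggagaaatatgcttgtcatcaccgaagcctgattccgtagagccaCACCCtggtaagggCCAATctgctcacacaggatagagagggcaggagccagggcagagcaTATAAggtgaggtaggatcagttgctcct
Hbb-bt: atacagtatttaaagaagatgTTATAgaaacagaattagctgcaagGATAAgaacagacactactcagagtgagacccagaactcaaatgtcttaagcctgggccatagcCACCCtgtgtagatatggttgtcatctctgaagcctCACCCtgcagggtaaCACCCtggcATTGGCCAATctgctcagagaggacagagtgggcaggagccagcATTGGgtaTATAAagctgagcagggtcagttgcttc
Alas2: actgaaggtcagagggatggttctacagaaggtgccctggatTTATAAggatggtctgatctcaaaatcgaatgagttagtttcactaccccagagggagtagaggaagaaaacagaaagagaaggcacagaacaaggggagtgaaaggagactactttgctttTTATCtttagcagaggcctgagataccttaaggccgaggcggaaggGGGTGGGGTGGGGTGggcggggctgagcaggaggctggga

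The Hba-a2 window (chr11:32296242-32296491) is not printed because it shares an unbroken identical run of 297 bases with that of Hba-a1 over the 300 bases compared. All 5 windows held a GATA site, a CACCC box and a TATA box, and the globin windows also held a CCAAT box. The TATA box closest to the start began 27 bases before it in Hba-a1, 30 in Hba-a2, 29 in Hbb-bs and 28 in Hbb-bt. In Alas2 a GATA site on the reverse strand began 86 bases before the start, the CACCC box occurred 3 times on the reverse strand, and the TATA box was found on both strands in overlapping letters 208 and 207 bases away. Such short motifs are common: among 32851 mouse windows of 250 bases, 22.6% held a GATA site, 52.0% a CACCC box, 33.8% a CCAAT box and 22.8% a TATA box. A match is a description of the letters and not a binding site.

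The paired copies are nearly the same in sequence. The coding sequences of Hba-a1 and Hba-a2 (426 bases) differ at 1 base, as do those of Hbb-bs and Hbb-bt (441 bases). Of the 31-base words of the Hba-a2 transcript, 8.97% are absent from Hba-a1, and of those of Hbb-bs 33.1% are absent from Hbb-bt. The division of reads within each pair is therefore uncertain, and the sum of the 4 globins is given beside the single genes. That sum is on the TPM scale, which corrects for transcript length.

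Total counts were 21451631 to 59280407 a library. Cardiomyocyte genes were abundant throughout, with a sum of 18281 to 34361 TPM over 8 genes. Of these 8 genes, 4 fell in HFpEF+Veh and in HFpEF+SGLT2i against non_failing and 1 in HFpEF+TYA-018. The shares of all genes called in these comparisons were 3.15%, 6.45% and 7.39%. The part of the cardiomyocyte shift in the globin values was not tested. Some libraries stood apart: V2529 and V2526 in globin, V2543 and V2571 in Slc4a1, and V2523 in liver genes. The sum of 10 hepatocyte genes was 1510 TPM in V2523, and in non_failing it was 317 TPM in V2504 and 191 TPM in V2503, where no HFpEF+TYA-018 library passed 29.8 TPM. Differences of the 6 members that rest on them are given with and without them.

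Globin levels differed most between single libraries. The summed globin TPM was 3775 at the lowest, 5824 at the median and 8127 at the highest in non_failing. It was 5766, 9094 and 41722.5 in HFpEF+Veh. In HFpEF+TYA-018 it was 4798, 12422 and 22853, and in HFpEF+SGLT2i 4705, 6630.1 and 15975. By median the groups ran from non_failing through HFpEF+SGLT2i and HFpEF+Veh to HFpEF+TYA-018, and each overlapped its neighbours. As a share of all TPM the medians were 0.608%, 0.691%, 0.954% and 1.29% in that order. The highest non_failing value was exceeded by 5 of 8 HFpEF+Veh, 6 of 11 HFpEF+TYA-018 and 3 of 11 HFpEF+SGLT2i libraries. HFpEF+Veh V2529 was the highest of all 38 libraries and HFpEF+Veh V2526, at 26326 TPM, the second, while HFpEF+Veh V2532 was the lowest of its group and ranked 30 of 38. Without V2529 and V2532 the HFpEF+Veh median was 9094 again, since it lost its highest and its lowest library. Without V2526 and V2529, a choice made after the values were seen, it was 7358.

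**Figure D1:**
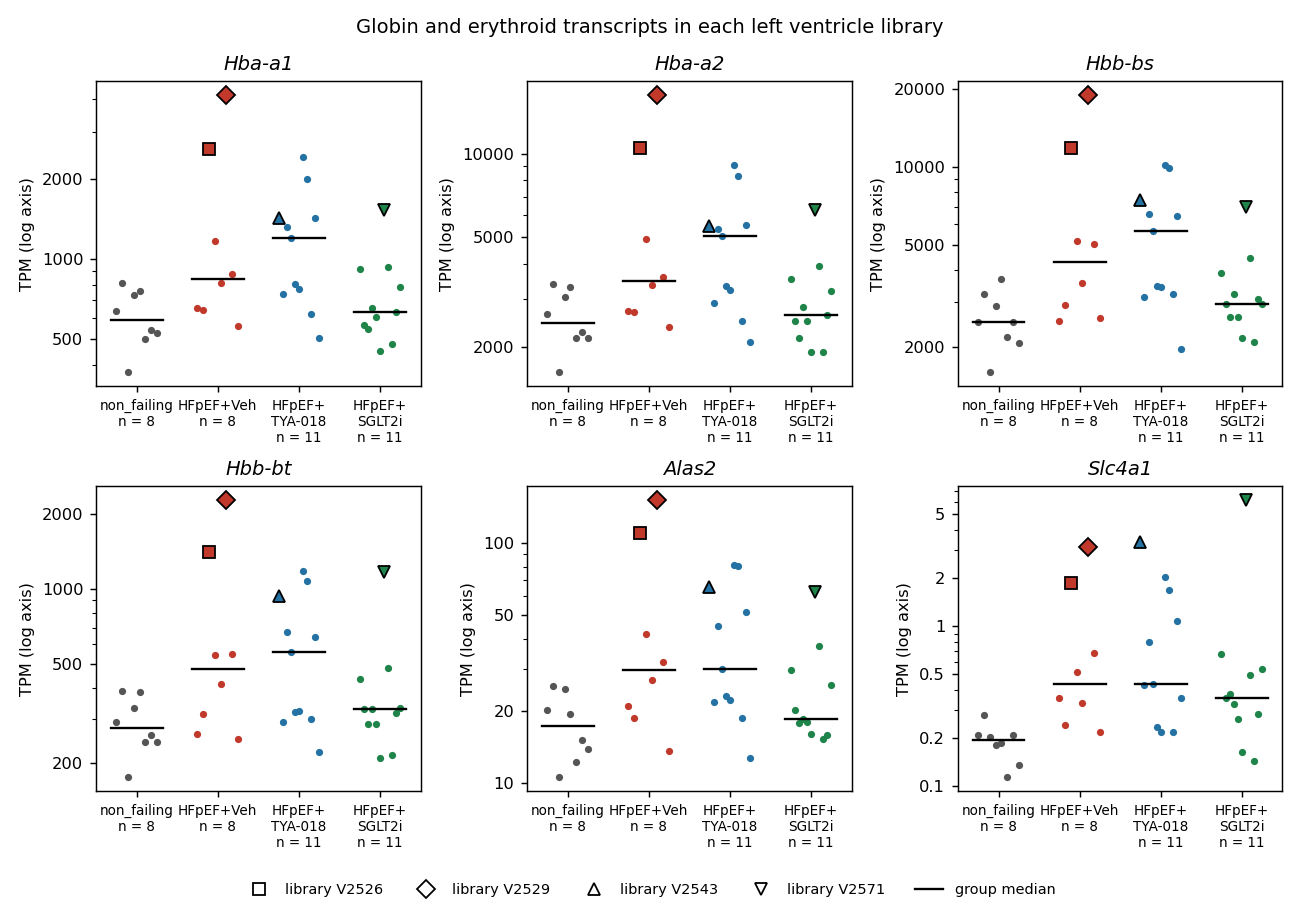
TPM of each transcript in each library on log axes, by group, with the group median as a bar. V2529 and V2526 were the 2 highest libraries for each of the 4 globins and for Alas2, and V2571 was the highest for Slc4a1, at 6.15 TPM.

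The alpha globins were abundant in every library. Hba-a1 was between 374 and 814 TPM in non_failing (median 586), between 559 and 4136 in HFpEF+Veh (842), between 504 and 2409 in HFpEF+TYA-018 (1199) and between 450.3 and 1527 in HFpEF+SGLT2i (633). Hba-a2, which took 79.1 to 81.5% of alpha globin TPM in all libraries, was between 1627 and 3375 in non_failing (2457), between 2369 and 16266 in HFpEF+Veh (3479.8), between 2097 and 9126 in HFpEF+TYA-018 (5023) and between 1926 and 6267 in HFpEF+SGLT2i (2612). For both genes the 4 groups overlapped, and the tops of the HFpEF+Veh and HFpEF+SGLT2i ranges were the libraries V2529 and V2571.

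The beta globins followed the same order of groups. Hbb-bs was between 1599 and 3669.7 TPM in non_failing (2504.2), between 2538 and 19039.9 in HFpEF+Veh (4292), between 1976 and 10139 in HFpEF+TYA-018 (5638) and between 2087 and 7014 in HFpEF+SGLT2i (2943). Hbb-bt was between 175 and 391 in non_failing (276), between 249 and 2280.4 in HFpEF+Veh (479.6), between 221 and 1178 in HFpEF+TYA-018 (560.5) and between 210.4 and 1166 in HFpEF+SGLT2i (329). The groups overlapped for both. Hbb-bt made 8.48 to 11.1% of beta globin TPM in 37 libraries and 14.3% in HFpEF+SGLT2i V2571. The ratio of alpha to beta globin TPM was between 0.802 and 1.22, with medians of 1.14 in non_failing, 1.03 in HFpEF+Veh, 1.00 in HFpEF+TYA-018 and 0.993 in HFpEF+SGLT2i.

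Alas2 was lower than the globins and Slc4a1 was the least abundant member. Alas2 was between 10.6 and 25.4 TPM in non_failing (median 17.3), between 13.6 and 152 in HFpEF+Veh (29.5), between 12.7 and 80.8 in HFpEF+TYA-018 (30.0) and between 15.3 and 62.4 in HFpEF+SGLT2i (18.4). Slc4a1 was between 0.114 and 0.280 TPM in non_failing (0.196), between 0.218 and 3.13 in HFpEF+Veh (0.438), between 0.219 and 3.36 in HFpEF+TYA-018 (0.439) and between 0.144 and 6.15 in HFpEF+SGLT2i (0.357). Its values rested on 19 to 712 counts a library. The groups overlapped for both genes, and non_failing held the lowest median of each.

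The first comparison asks what the HFpEF model did to these transcripts. All 6 were higher on average in HFpEF+Veh than in non_failing, and none passed the test. The log2 differences were 1.11 for Hba-a1 (SE 0.36), 1.05 for Hba-a2 (SE 0.35), 1.26 for Hbb-bs (SE 0.37), 1.29 for Hbb-bt (SE 0.42), 1.31 for Alas2 (SE 0.41) and 2.19 for Slc4a1 (SE 0.73), where the median over all genes was 0.01. The adjusted p of edgeR's quasi-likelihood test (Benjamini-Hochberg over all genes tested) lay between 0.0547 for Hbb-bs and 0.0987 for Hba-a2, so that 0 of 6 were called at 0.05, against 3.15% of all genes. At an unadjusted p under 0.05 there were 6 of 6, DESeq2 called 3, and limma called 0. Slc4a1 was above the non_failing mean in 8 of 8 HFpEF+Veh libraries, Hbb-bs and Alas2 in 7 of 8, and Hbb-bt in 6 of 8.

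The size of that difference rested on V2529 and V2526. Without V2529 and V2532 the log2 differences of the globins and Alas2 were 0.74 to 0.95 and that of Slc4a1 was 1.78, and 0 of 6 were called. Without V2526 and V2529 they were 0.18 to 0.36, and 0.94 for Slc4a1, with an adjusted p from edgeR between 0.638 and 0.870. Leaving out other libraries went the opposite way, with 5 of 6 members called without V2532 alone and 4 of 6 without V2523. V2529 also had the highest sum of 8 proliferation genes of all libraries, 14.1 TPM, and V2526 the highest level in its group of all 10 platelet genes. The part of these cells in the result was not tested.

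**Figure D2:**
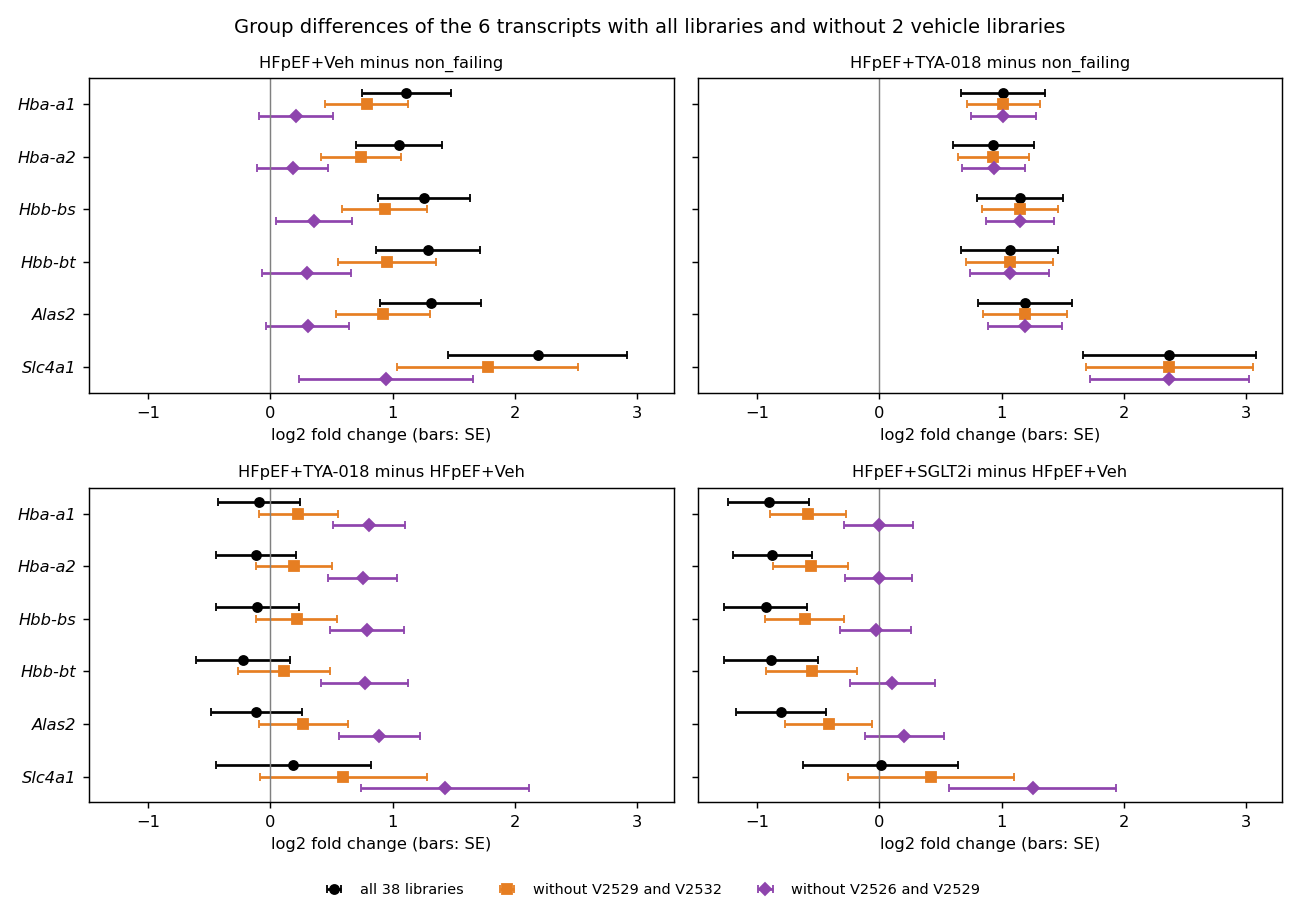
Log2 fold change of each transcript in 4 of the 6 comparisons, fitted with edgeR on all libraries (black), without V2529 and V2532 (orange) and without V2526 and V2529 (purple), with bars of 1 SE. The HFpEF+Veh minus non_failing values of the globins and Alas2, 1.05 to 1.31 with all libraries, were 0.18 to 0.36 without V2526 and V2529.

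TYA-018 was compared with vehicle in HFpEF mice. The globins and Alas2 differed by -0.22 to -0.09 on the log2 scale and Slc4a1 by 0.19, each less than its SE (0.32 to 0.63). No member was called (adjusted p from edgeR 0.806 to 0.911), against 1.93% of all genes, 0 of 6 had an unadjusted p under 0.05, and DESeq2 and limma called 0. The mean and the median went opposite ways: the HFpEF+TYA-018 mean of Hbb-bs was 0.846 times that of HFpEF+Veh, and its median 1.31 times. Without V2529 and V2532 the globins and Alas2 were 0.11 to 0.27 higher in HFpEF+TYA-018, and without V2526 and V2529 they were 0.75 to 0.89 higher, with 0 of 6 called in either case. The Slc4a1 difference was 0.60 and 1.43 in these fits, and -0.17 without V2543. The direction of this comparison thus changed with the libraries used.

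Empagliflozin was also compared with vehicle. The globins and Alas2 were lower on average in HFpEF+SGLT2i, and none passed the test. The log2 differences were -0.90 for Hba-a1 (SE 0.33), -0.88 for Hba-a2 (SE 0.32), -0.93 for Hbb-bs (SE 0.34), -0.88 for Hbb-bt (SE 0.38), -0.80 for Alas2 (SE 0.37) and 0.01 for Slc4a1 (SE 0.63). The adjusted p from edgeR lay between 0.253 and 0.996 and 0 of 6 were called, against 0.85% of all genes. An unadjusted p under 0.05 was found for 5 of 6, and DESeq2 and limma called 0. Each globin was below the HFpEF+Veh mean in 10 of 11 HFpEF+SGLT2i libraries, and the other one was V2571. That mean was raised by V2529 and V2526, and the HFpEF+Veh median was exceeded by 3 of 11 HFpEF+SGLT2i libraries for the alpha globins and by 2 of 11 for the beta globins. Without V2529 and V2532 the log2 differences of the globins and Alas2 were -0.61 to -0.41 and that of Slc4a1 was 0.42. Without V2526 and V2529 the log2 difference was -0.03 for Hbb-bs, 0.11 for Hbb-bt, 0.20 for Alas2 and 1.25 for Slc4a1 (adjusted p from edgeR 0.694). Without V2571 the globins and Alas2 stood at -1.19 to -1.02 and Slc4a1 at -1.28 (adjusted p from edgeR 0.239), and none was called. Both drug comparisons share the HFpEF+Veh libraries. In each of them 10 of 10 hepatocyte genes fell, against 1.93% of all genes called with TYA-018 and 0.85% with empagliflozin. The median log2 differences of the list were -6.25 and -5.83. The HFpEF+Veh library V2523 had a sum of 1510 TPM over these genes, and the next of its group, V2532, had 46.2 TPM. The group medians were 26.6 TPM in HFpEF+Veh, 19.4 TPM in HFpEF+TYA-018 and 18.6 TPM in HFpEF+SGLT2i. The size of these falls thus rested mainly on V2523. The part of liver RNA in the globin differences was not tested.

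The drugs were compared with each other as well. With TYA-018 the globins and Alas2 lay 0.66 to 0.82 above their HFpEF+SGLT2i levels on the log2 scale, and Slc4a1 0.18, and none passed the test. For Hbb-bs the log2 difference was 0.82 (SE 0.32, adjusted p from edgeR 0.246), and 8 of 11 HFpEF+TYA-018 libraries lay above the HFpEF+SGLT2i mean. Over the members the adjusted p lay between 0.242 and 0.947. edgeR called 0 of 6 members and 0% of all genes, where 1821 genes had an unadjusted p under 0.05 and DESeq2 called 185. Of the members, 3 had an unadjusted p under 0.05, and DESeq2 and limma called 0. This comparison does not use the vehicle libraries, apart from the shared estimate of the spread: without V2526 and V2529 the globins and Alas2 stood at 0.66 to 0.82. Without V2571 the Slc4a1 difference was 1.46 (adjusted p from edgeR 0.193) and the globins and Alas2 were at 0.90 to 0.98, and none was called. Without V2543 the Slc4a1 difference was -0.18 (adjusted p from edgeR 0.937).

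Against non_failing, 2 of 6 transcripts rose in HFpEF+TYA-018, the beta globin Hbb-bs and the membrane transporter Slc4a1, where 7.39% of all genes were called. Hbb-bs rose by a log2 value of 1.15 (SE 0.35, adjusted p from edgeR 0.0385) and was above the non_failing mean in 10 of 11 libraries. Slc4a1 rose by 2.37 (SE 0.71, adjusted p from edgeR 0.0320) and was above that mean in 11 of 11 libraries and above the highest non_failing library in 8. The other log2 differences were 1.19 for Alas2 (SE 0.39), 1.02 for Hba-a1 (SE 0.34), 0.93 for Hba-a2 (SE 0.33) and 1.07 for Hbb-bt (SE 0.40), with an adjusted p between 0.0516 and 0.0953. DESeq2 called 3 and limma called 0. Leaving out 1 library at a time kept Hbb-bs called in 28 of 38 fits and Slc4a1 in 29 of 38, and the adjusted p reached 0.0859 for Hbb-bs without non_failing V2503 and 0.0618 for Slc4a1 without HFpEF+TYA-018 V2543. In the same comparison 7 of 10 hepatocyte genes fell, as did 7 of 10 in HFpEF+SGLT2i against non_failing, and the median log2 differences of the list were -4.86 and -4.72. Neither Hbb-bs nor Slc4a1 was called without V2504 or without V2503, the non_failing libraries with the highest hepatocyte sums. Calls were also lost in other fits, and V2503 had the lowest globin sum of all libraries, 3775 TPM. The log2 differences stayed about as large, at 1.02 to 1.29 for Hbb-bs and 2.02 to 2.475 for Slc4a1 over all 38 fits. The part of liver RNA in these values was not tested. Without V2529 and V2532 there were 5 of 6 called, and without V2526 and V2529 6 of 6, although none of these libraries belongs to either group. Both pairs leave the estimate of the difference almost as it was (1.15 for Hbb-bs), and change the spread shared by all groups.

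HFpEF+SGLT2i was compared with non_failing in the same way, and no member passed the test. The log2 differences were 0.20 for Hba-a1 (SE 0.34), 0.18 for Hba-a2 (SE 0.33), 0.33 for Hbb-bs (SE 0.34), 0.40 for Hbb-bt (SE 0.39) and 0.51 for Alas2 (SE 0.38). For Slc4a1 the log2 difference was 2.20 (SE 0.70, adjusted p from edgeR 0.0526), and 9 of 11 libraries were above the non_failing mean. edgeR called 0 of 6, against 6.45% of all genes, 1 of 6 had an unadjusted p under 0.05, DESeq2 called 1 and limma 0. Without V2571 the Slc4a1 difference was 0.91 (adjusted p from edgeR 0.372, where the fits with 1 library left out ranged from 0.0433 to 0.372). Comparisons with non_failing share its 8 libraries.

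The members moved together from library to library. Across all 38 libraries, on the log2 CPM scale (counts scaled to library size), Pearson's r between pairs of globins was 0.981 to 0.999 (Spearman's rho 0.973 to 0.995), and 0.971 to 0.998 without the 2 libraries farthest from the median. Between a globin and Alas2 it was 0.959 to 0.973 (rho 0.920 to 0.933), and within single groups 0.930 to 0.990. Between a globin and Slc4a1 it was 0.838 to 0.894 (rho 0.795 to 0.817), and within groups 0.530 to 0.982. These are descriptions over libraries that share their scaling, and near-identical globin copies share reads.

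**Figure D3:**
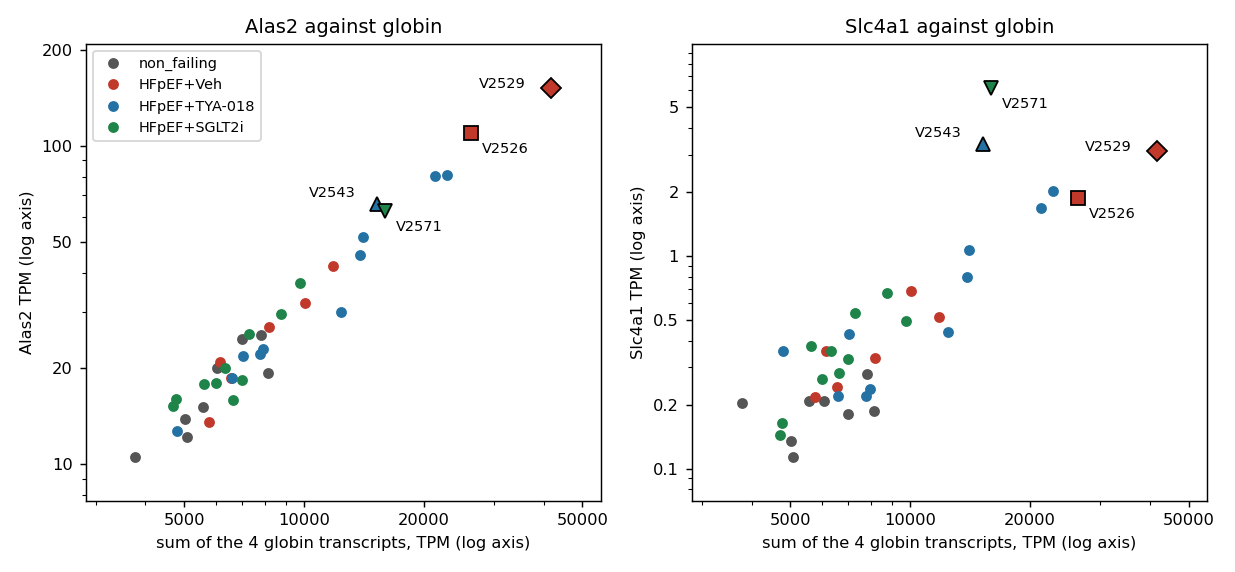
Alas2 and Slc4a1 TPM of each library against the sum of the 4 globins, on log axes. Alas2 lay between 2.36 and 4.30 TPM per 1000 globin TPM in all libraries, while V2543 and V2571 stood above the others in Slc4a1.

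Alas2 kept a narrow ratio to globin and Slc4a1 did not. Alas2 was 2.36 to 4.30 TPM per 1000 TPM of globin, with group medians of 2.79 in non_failing, 3.35 in HFpEF+Veh, 3.10 in HFpEF+TYA-018 and 3.25 in HFpEF+SGLT2i. Slc4a1 per 1000 globin TPM was 0.220 in HFpEF+TYA-018 V2543 and 0.385 in HFpEF+SGLT2i V2571, and between 0.0224 and 0.0884 in the other libraries. Its medians were 0.0307 in non_failing, 0.0509 in HFpEF+Veh, 0.0608 in HFpEF+TYA-018 and 0.0505 in HFpEF+SGLT2i, and the groups overlapped. These 2 libraries were singled out after their values were seen.

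V2571 was high in some blood cell lists and not in others. It was above every other HFpEF+SGLT2i library in 6 of 6 members, 13 of 15 late erythroid genes, 10 of 10 platelet genes and 10 of 10 neutrophil genes. The same held for 6 of 14 red cell membrane genes, 2 of 9 erythroid regulators, 1 of 11 haem synthesis genes and 2 of 8 B and T cell genes, and its red cell membrane sum of 179 TPM was below the group median of 198 TPM. Its neutrophil sum was 265 TPM, where the next library of its group had 63.7, with S100a9 at 110 TPM and S100a8 at 74.3, both calcium-binding proteins abundant in neutrophils. V2571 also had the lowest sum of 8 cardiomyocyte genes of all libraries (18281 TPM) and the highest sum of 8 endothelial genes (678 TPM). The part of other cells in the values of this library was not tested.

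**Figure D4:**
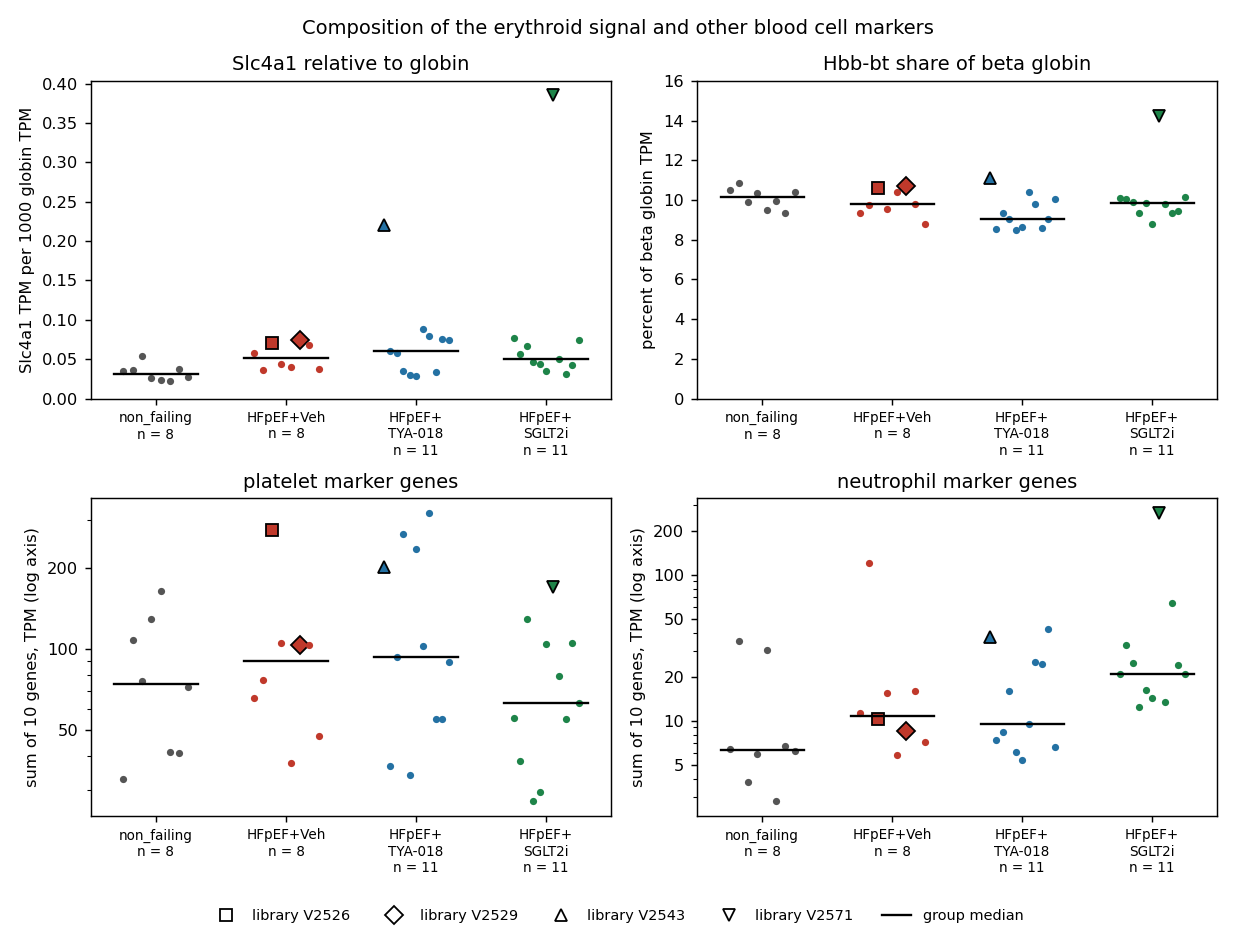
Slc4a1 per 1000 globin TPM, the share of Hbb-bt in beta globin TPM, and summed TPM of 10 platelet and 10 neutrophil genes (log axes) in each library, by group, with the group median as a bar. V2571 stood above its group in Hbb-bt share (14.3%) and in the neutrophil sum (265 TPM), and V2526 in the platelet sum of HFpEF+Veh (276 TPM).

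Of all other genes, Fam46c and Ube2l6 were among the 3 closest to every member. Likeness was measured by Spearman's rho over the 38 libraries, among 13759 non-member genes. The rho of Fam46c, which encodes a poly(A) polymerase, was 0.923 with Hba-a1, 0.924 with Hba-a2, 0.940 with Hbb-bs, 0.96 with Hbb-bt, 0.934 with Alas2 and 0.875 with Slc4a1. Ube2l6, a ubiquitin-conjugating enzyme, had a rho of 0.908 with Hba-a1, 0.914 with Hbb-bs and 0.862 with Slc4a1. Against non_failing, Ube2l6 rose in HFpEF+TYA-018 by a log2 value of 0.86 (SE 0.24, adjusted p from edgeR 0.0212, above the non_failing mean in 10 of 11 libraries). For Fam46c the log2 difference there was 1.12 (SE 0.39, adjusted p from edgeR 0.0739), which did not pass.

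Of 11 genes of haem synthesis and its transport, 1 was called in any comparison: Alad, the enzyme of the second step, rose in HFpEF+TYA-018 against non_failing by 0.30 (SE 0.08, adjusted p from edgeR 0.0120, 10 of 11 libraries), in a comparison that called 7.39% of all genes. That call held in 10 of 13 other settings, and the highest adjusted p among them was 0.0810, from limma on log2(TPM + 1). Of 9 other globin genes, Mb (muscle myoglobin) and Cygb were tested and not called. The embryonic globins Hbb-bh1 and Hbb-bh2 had 0 counts in all 38 libraries, and Hba-x and Hbb-y had at most 2 counts in any library.

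Among erythroid regulators, Epor and Tfrc changed. Of 9 genes 6 were tested. Against non_failing, 1 was called in HFpEF+Veh, 2 in HFpEF+TYA-018 and 1 in HFpEF+SGLT2i. The shares of all genes called there were 3.15%, 7.39% and 6.45%. Gata1 was tested and not called, and Klf1 and Gfi1b, with at most 9 and 6 counts in any library, were not tested. Epor, the receptor of the hormone erythropoietin, was between 0.578 and 1.09 TPM in non_failing (median 0.687), between 0.896 and 2.62 in HFpEF+Veh (1.41), between 1.03 and 3.09 in HFpEF+TYA-018 (1.96) and between 0.980 and 3.94 in HFpEF+SGLT2i (1.88). It was above the non_failing mean in every HFpEF library, though the ranges overlapped. Epor rose against non_failing by 0.94 in HFpEF+Veh (SE 0.21, adjusted p from edgeR 0.00680), by 1.49 in HFpEF+TYA-018 (SE 0.20, adjusted p 3.13e-06) and by 1.40 in HFpEF+SGLT2i (SE 0.20, adjusted p 9.14e-06), and it was called in 13 of 13 alternatives and 38 of 38 fits with 1 library left out in each. Tfrc, the transferrin receptor that brings iron into cells, rose in HFpEF+TYA-018 by 1.51 (SE 0.26, adjusted p from edgeR 0.000229, 10 of 11 libraries above the non_failing mean). Its TPM was 6.96 to 11.3 in non_failing and 4.89 to 51.2 in HFpEF+TYA-018, with V2543 the highest. Neither gene is restricted to red cell precursors.

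Late erythroid, platelet and neutrophil genes were also followed. Of 16 late erythroid genes 15 were in the tables and 12 were tested. Among them Cd24a, a surface protein also found on other cells, rose in HFpEF+Veh against non_failing by 2.63 (SE 0.60, adjusted p from edgeR 0.00927) and fell in HFpEF+SGLT2i against HFpEF+Veh by 2.07 (SE 0.53, adjusted p from edgeR 0.0472). Without HFpEF+Veh V2523, whose sum of 10 hepatocyte genes was 1510 TPM, the Cd24a differences were 0.85 (adjusted p 0.212) and -0.29 (adjusted p 0.785), each the highest adjusted p of the fits with 1 library left out. None of the 10 platelet genes was called, and all 10 were higher on average in HFpEF+Veh and in HFpEF+TYA-018 than in non_failing, with median log2 differences of 0.35 and 1.08, beside 0.01 over all genes. The HFpEF+TYA-018 average of all 10 was also above that of HFpEF+Veh (median 0.61) and that of HFpEF+SGLT2i (median 1.00), and the part of platelet RNA in the globin differences was not tested. Of the 7 neutrophil genes tested, Lcn2 rose in HFpEF+Veh against non_failing by 3.12 (adjusted p from edgeR 0.00873). Lcn2 fell in HFpEF+TYA-018 against HFpEF+Veh by 2.26 (adjusted p from edgeR 0.0410). These comparisons called 3.15% and 1.93% of all genes. Most of the list went the other way. In HFpEF+Veh against non_failing 5 of 7 were lower on average (median log2 difference -0.26). In HFpEF+TYA-018 against HFpEF+Veh 6 of 7 were higher (median 0.63). Without V2523 the log2 differences of Lcn2 were 0.60 (adjusted p 0.427) and 0.27 (adjusted p 0.722). In HFpEF+SGLT2i no neutrophil gene was called, and the median log2 difference of the 7 was 1.80 against non_failing, where 7 of 7 were higher on average, and 2.18 against HFpEF+Veh, where 6 of 7 were. HFpEF+TYA-018 was lower than HFpEF+SGLT2i in 7 of 7, with a median of -1.39. The neutrophil sum was 265 TPM in V2571 beside an HFpEF+SGLT2i median of 20.9 TPM, and the part of V2571 in these medians was not tested. None of 8 proliferation genes was called, and all 8 were lower on average in HFpEF+TYA-018 and in HFpEF+SGLT2i, with median log2 differences of -0.64 and -0.46 against non_failing and of -0.53 and -0.37 against HFpEF+Veh. None of 8 B and T cell genes was called.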

How the data were processed

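RNA of 38 mouse left ventricle samples was sequenced after polyA selection (TruSeq Stranded mRNA). The authors trimmed reads, quantified transcripts with Salmon (version 1.6.0 in the submitters' processing notes) and summed them to genes. The deposited tables hold expected counts and, separately, TPM values. The notes name genome hg38, and the study's methods a mouse GENCODE annotation. The TPM columns sum to 950659 to 965392 over the genes listed. Expected counts were rounded and tested with edgeR 4.0.16 (R 4.3.3). Genes were filtered with filterByExpr, which kept 13765 of 29564 genes (7693 had no count), scaled by TMM, and fitted with the quasi-likelihood model over 4 groups without covariates. Each of 6 comparisons was adjusted by Benjamini-Hochberg over all genes tested, with a threshold of 0.05. TPM values were used for levels, and log2 CPM with a prior count of 2 for correlations. Alternatives used DESeq2 1.42.0, limma 3.58.1 on log2(TPM + 1) and log2(TPM + 0.1), library sizes alone, no count filter, a length offset and left-out libraries. Tables and figures were made with Python 3.11.15, pandas 2.3.3 and matplotlib 3.10.9, and the test was tested on simulated data. The simulation gave every gene the same spread and held no outlying library. It therefore does not show how the test performs for these 6 transcripts.

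Total counts of 21451631 to 59280407 left Slc4a1 with as few as 19 counts. In each other list the genes named were the called genes with the smallest p, up to 3 in each direction, and the most abundant genes where a level is described, with the 3 genes closest to each member by Spearman's rho. Other named libraries were chosen after their values were seen. The members and lists were chosen with earlier results of these data known. No pair of libraries in a group agreed within sampling noise (chi-square per degree of freedom at least 17.4 over 166 pairs), so each was counted once. Some genes of the lists are not reported here.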

Additional observations from a re-analysis of the deposited data

Results flagged for a closer look

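Slc4a1 per 1000 TPM of globin was 0.0542 in non_failing V2503, where the next highest non_failing library had 0.0372. The gap to that library, set against the range of the group, was larger than Dixon's limit at the 95% level. V2503 also had the lowest globin sum of all libraries, 3775 TPM. In all, 24 group tests of this kind were made, and chance flags about 1 in 20 groups.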

How the results depend on the processing

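No paired analysis was possible because the library numbers differ in every group. Of 492 alternative values over 36 log2 differences, 439 kept direction and side of the threshold, 31 newly passed it, 4 no longer passed it and 18 reversed. The cause was not tested where a value changed. Members called in HFpEF+Veh against non_failing, 0 as reported, were 2 with library size alone, 3 with DESeq2, 1 with a length offset, 1 with only the 2 groups compared, 4 without V2523 and 3 without V2543 and V2571, and 0 to 5 with 1 library left out. In HFpEF+TYA-018 against non_failing, 2 as reported, they were 0 with limma at either pseudocount, 6 with only the 2 groups compared, 5 without V2529 and V2532 and 6 without V2526 and V2529, and 0 to 5 with 1 library left out. In HFpEF+SGLT2i against non_failing, 0 as reported, 1 was called with DESeq2, without V2529 and V2532 and without V2526 and V2529, and 0 to 1 with 1 library left out. Settings without V2526 and V2529 or without V2543 and V2571 were added after seeing the data.

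Reversals lay in comparisons between HFpEF groups. For HFpEF+TYA-018 minus HFpEF+Veh, leaving out V2529 and V2532 gave 0.23 for Hba-a1, 0.20 for Hba-a2, 0.21 for Hbb-bs, 0.11 for Hbb-bt and 0.27 for Alas2, and leaving out V2526 and V2529 gave 0.81, 0.75, 0.79, 0.77 and 0.89. Slc4a1 was -0.17 without V2543 and V2571. With 1 library left out these differences were -0.25 to 0.34 for Hba-a1, -0.26 to 0.31 for Hba-a2, -0.24 to 0.33 for Hbb-bs, -0.38 to 0.25 for Hbb-bt, -0.25 to 0.38 for Alas2 and -0.17 to 0.75 for Slc4a1. For HFpEF+SGLT2i minus HFpEF+Veh, Hbb-bt was 0.11 and Alas2 0.20 without V2526 and V2529, and Slc4a1 was -0.054 with library size alone, -0.14 and -0.36 with limma at pseudocounts of 1 and 0.1, -0.15 without V2523 and -1.28 without V2543 and V2571, with -1.28 to 0.58 over single libraries left out. Slc4a1 in HFpEF+TYA-018 minus HFpEF+SGLT2i was -0.18 to 1.46 with 1 library left out.

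The median globin share was 0.317% in non_failing and 0.348% in HFpEF+SGLT2i as a share of counts, and 0.952% in non_failing, 1.96% in HFpEF+TYA-018 and 1.07% in HFpEF+SGLT2i without mitochondrially encoded genes. Over all genes, library size alone gave 1096 calls in HFpEF+TYA-018 minus HFpEF+Veh, where 266 were reported, and moved the median log2 difference there to -0.14. DESeq2 gave 185 calls between the drugs, where 0 were reported. The depth left Slc4a1 at 19 to 712 counts, the least precise of the members.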

Other observations

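Of 8 genes of haemoglobin and haem clearance in the tables, 2 were called, both in HFpEF+TYA-018 against non_failing, where 7.39% of all genes were called. Over the 8 genes, 3 were higher and 5 lower on average there, with a median log2 difference of -0.09. Slc48a1, a transporter that moves haem out of lysosomes, rose by a log2 value of 0.26 (SE 0.05, adjusted p from edgeR 0.00184, above the non_failing mean in 11 of 11 libraries). Fth1, the heavy chain of the iron store ferritin, rose by 0.32 (SE 0.07, adjusted p from edgeR 0.00359, 9 of 11 libraries). Both kept their call in 38 of 38 fits with 1 library left out. Fth1 was called in 13 of 13 other settings and Slc48a1 in 11 of 13. The highest adjusted p of Slc48a1 among them was 0.0647, from limma at a pseudocount of 1. None of 8 macrophage genes was called, and all 8 were higher on average in each HFpEF group than in non_failing, with median log2 differences of 0.29 in HFpEF+Veh, 0.19 in HFpEF+TYA-018 and 0.23 in HFpEF+SGLT2i. None of 8 endothelial genes was called in any comparison. Of 6 fibroblast genes, Lum and Pdgfra rose in HFpEF+Veh against non_failing by 0.86 and 0.33 (adjusted p from edgeR 0.00190 and 0.0123). That comparison called 3.15% of all genes. Lum also rose in HFpEF+TYA-018 by 0.54 (adjusted p from edgeR 0.0268). In HFpEF+SGLT2i Pdgfra rose and Tcf21 fell (log2 differences 0.35 and -0.43, adjusted p from edgeR 0.00211 and 0.0324). The part of fibroblasts in the globin values was not tested.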
